A study of Mus musculus with 14 samples.

Results

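Genes of endocannabinoid synthesis, breakdown and reception were followed in the cerebral cortex of mice without a working Fmr1, which encodes FMRP, a protein that binds mRNA and ribosomes in neurons. The group held 8 genes of the 23412 in the deposited table, taken by symbol: Dagla, Daglb, Mgll, Abhd6, Abhd12, Napepld, Faah and Cnr1. All 8 were found and all 8 passed the filter on low counts in both assays, so none was lost to depth.

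Endocannabinoids are lipid messengers that neurons make on demand from membrane phospholipids. In cortex, activity at a postsynaptic cell leads to synthesis of 2-arachidonoylglycerol (2-AG) by diacylglycerol lipases, and the lipid travels back to the presynaptic terminal, where the receptor CB1 lowers transmitter release. Hydrolases then end the signal. Anandamide, the other main endocannabinoid, has its own synthetic and degrading enzymes. Metabotropic glutamate receptors of group I are a known trigger of 2-AG synthesis at cortical synapses, which is one reason the pathway has been examined in animals without FMRP.

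Control mice carried Rpl22flox/flox;CamKCre+, and knock-out (KO) mice carried the same alleles together with Fmr1X-Y. The floxed Rpl22 and the CamK-driven Cre, a design that tags ribosomes of forebrain excitatory neurons, were thus common to both groups. The labels' protocols describe monosomes from whole lysates and name no pull-down of tagged ribosomes, and age is not given in the sources used here. RNA-seq libraries came from control mice 1, 3, 6 and 8 (n = 4) and from KO mice 2, 4, 5 and 7 (n = 4). Ribosome profiling, which sequences the mRNA fragments shielded by ribosomes (footprints), used control mice 1, 3 and 9 (n = 3) with KO mice 2, 4 and 10 (n = 3). Mice 1 to 4 were in both assays. The labels number the mice but say nothing of litters, so p-values measure the spread between these libraries.

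Libraries held 8847547 to 11371851 counts in RNA and 4124065 to 6033030 in footprints. Levels are given as CPM, the count scaled to a library's total after TMM normalization. Fmr1 RNA averaged 82.9 ± 8.36 CPM over the controls and 21.7 ± 2.40 CPM over the KO mice (SD, n = 4 each). Fmr1 footprints averaged 113 ± 1.99 CPM and 7.44 ± 1.43 CPM (SD, n = 3 each). No marker on the lists for excitatory and inhibitory neurons, astrocytes, oligodendrocytes, microglia and endothelium was at 0 in either assay. RNA libraries of KO mice 2, 4 and 7 were close to each other, where chi-square divided by its degrees of freedom was 1.18 to 1.32, against 5.64 to 6.02 when each was paired with KO mouse 5. Control mice 1 and 3 were at 1.99 in RNA, and the other RNA control pairs at 4.03 to 11.8. In footprints every pair of 1 genotype was at 1.15 to 1.42, so the footprint tests rest on libraries that differ little within a genotype. In bulk tissue, fewer cells of a type and less RNA per cell cannot be told apart.

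The RefSeq promoter table (GRCm38.p6) held 6 of the 8 genes. The bases before the most upstream listed start are shown for Mgll and Abhd6, the members with the largest RNA differences described below. Mgll: chr6:88724162-88724411, plus strand. Abhd6: chr14:8002638-8002887, plus strand. Capitals mark any match to the searched motifs.
Mgll: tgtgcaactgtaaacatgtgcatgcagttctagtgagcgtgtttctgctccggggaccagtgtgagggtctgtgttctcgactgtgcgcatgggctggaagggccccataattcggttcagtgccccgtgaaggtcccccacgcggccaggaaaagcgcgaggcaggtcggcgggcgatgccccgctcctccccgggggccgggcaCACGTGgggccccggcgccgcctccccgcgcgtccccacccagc
Abhd6: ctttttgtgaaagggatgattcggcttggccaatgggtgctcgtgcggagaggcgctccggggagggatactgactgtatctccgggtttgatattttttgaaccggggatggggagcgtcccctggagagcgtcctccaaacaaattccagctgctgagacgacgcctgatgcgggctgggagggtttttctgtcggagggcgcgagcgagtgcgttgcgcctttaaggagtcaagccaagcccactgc
On both strands, 5 motifs were searched in these 250 bases: the cAMP response element TGACGTCA and the shorter TGACG (which lies inside it), the E-box CACGTG, the Egr motif GCGGGGGCG and the TATA motif TATAAA. Mgll held 1 CACGTG, which 6.02% of the 32851 promoter windows of the table hold. Abhd6 held none of the 5, and the other 4 matched members held none either. TGACGTCA is in 1.55% of windows, TGACG in 17.8%, GCGGGGGCG in 2.57% and TATAAA in 12.4%. A match is a run of letters and was not tied to any binding here.

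The first question was whether the ribosome occupancy of these mRNAs differed with genotype. Footprints of the 2-AG hydrolases Mgll and Abhd12 rose in KO cortex, and those of the other 6 genes were not called. Called means an adjusted p under 0.05 over all genes tested, in edgeR's quasi-likelihood test. Thus 2 of 8 members were called, both higher, in a comparison where 25.5% of all genes were called, 11.9% higher and 13.6% lower. The count of 2 in 8 was therefore near the share among all genes. On plain library sizes 4 of 8 were called, all higher, and 28.4% of all genes were called, 18.8% higher and 9.57% lower. The members' median log2 fold change was 0.12, beside 0.0054 over all 12158 genes tested.

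Mgll encodes monoacylglycerol lipase, the main enzyme of 2-AG breakdown in brain and a presynaptic and glial protein. Its footprints were at 89.5, 99.4 and 91.1 CPM in control mice 1, 3 and 9 and at 122, 129 and 118 CPM in KO mice 2, 4 and 10. Every KO library lay above every control library. KO footprints were at 1.32 times the control mean, with a log2 fold change of 0.39 ± 0.058 (SE) and an adjusted p of 3.75e-08 in edgeR. Titles that open with the same prefix pair 1 control with 1 KO library, and within these pairs the log2 difference was 0.45, 0.37 and 0.38. The call held under each of the 11 other settings tried, with log2 fold changes of 0.35 to 0.45.

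Abhd12 encodes a serine hydrolase that can cleave 2-AG and is best known as a lysophosphatidylserine lipase. Its footprints were at 219, 211 and 201 CPM in control mice 1, 3 and 9, and at 242, 255 and 246 CPM in KO mice 2, 4 and 10. The genotypes did not overlap. KO footprints were at 1.18 times the control mean (log2 fold change 0.24 ± 0.040 SE, adjusted p = 1.27e-06, edgeR), and the differences within pairs of one title prefix were 0.14, 0.29 and 0.27. This call also held under the 11 other settings, with adjusted p-values up to 0.0380 when all 14 libraries shared one estimate of spread.

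Abhd6 encodes the postsynaptic hydrolase of 2-AG. Its footprints were at 81.0, 76.2 and 78.0 CPM in control mice 1, 3 and 9 and at 75.7, 71.2 and 73.3 CPM in KO mice 2, 4 and 10. With TMM scaling the KO libraries all lay below the controls, by a small distance. That difference, a log2 value of -0.091 ± 0.068 (SE; edgeR adjusted p = 0.355), was not called. On plain library sizes the groups overlapped and the value was -0.032 (adjusted p = 0.778, edgeR).

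Dagla encodes diacylglycerol lipase alpha, which makes most of the 2-AG of adult synapses. Its footprints were at 69.9, 64.1 and 69.5 CPM in control mice 1, 3 and 9 and at 55.5, 63.6 and 61.2 CPM in KO mice 2, 4 and 10. With TMM scaling the groups did not overlap, but control mouse 3 and KO mouse 4 were nearly equal. Dagla footprints differed by a log2 value of -0.17 ± 0.074 (SE, adjusted p = 0.0872, edgeR), which was not called. On plain library sizes it was -0.11 (adjusted p = 0.297, edgeR), with KO mouse 4 (64.8 CPM) above control mouse 3 (62.7 CPM). Daglb, the related lipase that is prominent outside neurons, had footprints of 49.6, 53.9 and 55.3 CPM in the same controls, with 58.1, 59.3 and 58.0 CPM for the KO mice. Here every KO library lay above the controls (log2 value 0.14 ± 0.078, SE; edgeR adjusted p = 0.206). With TMM scaling, 5 members had footprint libraries that did not overlap between genotypes, 3 higher and 2 lower. Of all genes tested, 37.3% did not overlap either, 18.1% higher and 19.2% lower. Without TMM scaling, on plain library sizes, the tally was 4 higher and 0 lower, among all genes 25.4% and 13.8%. The 4 were Mgll, Abhd12, Daglb and Cnr1, while Dagla and Abhd6 overlapped.

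The ratio of Dagla to Daglb does not depend on how libraries are scaled. In footprints its log2 value was 0.25 to 0.50 in controls and -0.066 to 0.10 in KO mice. In RNA it was 0.89 to 1.15 in controls and 0.98 to 1.15 in KO mice. The groups thus did not overlap in footprints and overlapped in RNA. The log2 ratio of Dagla to Mgll, synthesis to breakdown of 2-AG, was -0.63 to -0.36 in control footprints and -1.14 to -0.94 in KO footprints. In RNA it was -0.015 to 0.10 in controls and -0.058 to -0.034 in KO mice. In these columns the groups did not overlap in either assay, and the difference of means was -0.57 in footprints and -0.095 in RNA. The RNA separation was not seen in the exon columns, the second RNA count described below. There the ratio was -1.33 to -1.17 in controls and -1.21 to -1.09 in KO mice, with overlap and a difference of means of 0.071. That of Abhd6 to Mgll was -0.38 to -0.14 in control footprints and -0.86 to -0.68 in KO footprints, and in RNA the groups overlapped. That of Faah to Napepld, breakdown to synthesis of anandamide, overlapped in both assays, with 2.35 to 2.81 in control footprints and 2.26 to 2.53 in KO footprints. The share of all gene pairs without overlap was not computed. These 4 ratios were chosen with the values known and carry no test.

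Neither the anandamide enzymes nor the receptor was called. Napepld makes anandamide precursors into N-acylethanolamines, and its footprints in control mice 1, 3 and 9 were 20.1, 13.7 and 16.7 CPM, with 18.3, 18.6 and 18.9 CPM for KO mice 2, 4 and 10. The groups overlapped, and with 77 to 94 counts per library the 95% interval of the log2 fold change ran from -0.11 to 0.45. The value of 0.17 became 0.031 without control mouse 3 and 0.29 without control mouse 1, called in neither (adjusted p = 0.922 and 0.186, edgeR). Faah, the amidase that breaks anandamide down, had control footprints of 102, 96.3 and 102 CPM and KO footprints of 105, 106 and 90.5 CPM, with KO mouse 10 the lowest of all. Its interval was -0.11 to 0.13 (log2 fold change 0.0084 ± 0.061 SE, adjusted p = 0.940, edgeR). Cnr1 encodes CB1, one of the most abundant G protein-coupled receptors of brain. Control footprints of Cnr1 were 152, 149 and 159 CPM and KO footprints 169.8, 156 and 170.5 CPM, and the groups overlapped through KO mouse 4. Its difference of 0.11 ± 0.048 in log2 (SE; edgeR adjusted p = 0.0990) was called without KO mouse 4 (0.15, adjusted p = 0.0384, edgeR, where 20.7% of all genes were called) and on plain library sizes (0.16, adjusted p = 0.00535, edgeR). It was 0.081 both without control mouse 3 (adjusted p = 0.327, edgeR) and without KO mouse 10 (adjusted p = 0.326, edgeR), and its adjusted p was 0.306 in DESeq2. With the spread shared by RNA and footprint libraries it was 0.457 (edgeR).

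**Figure D1:**
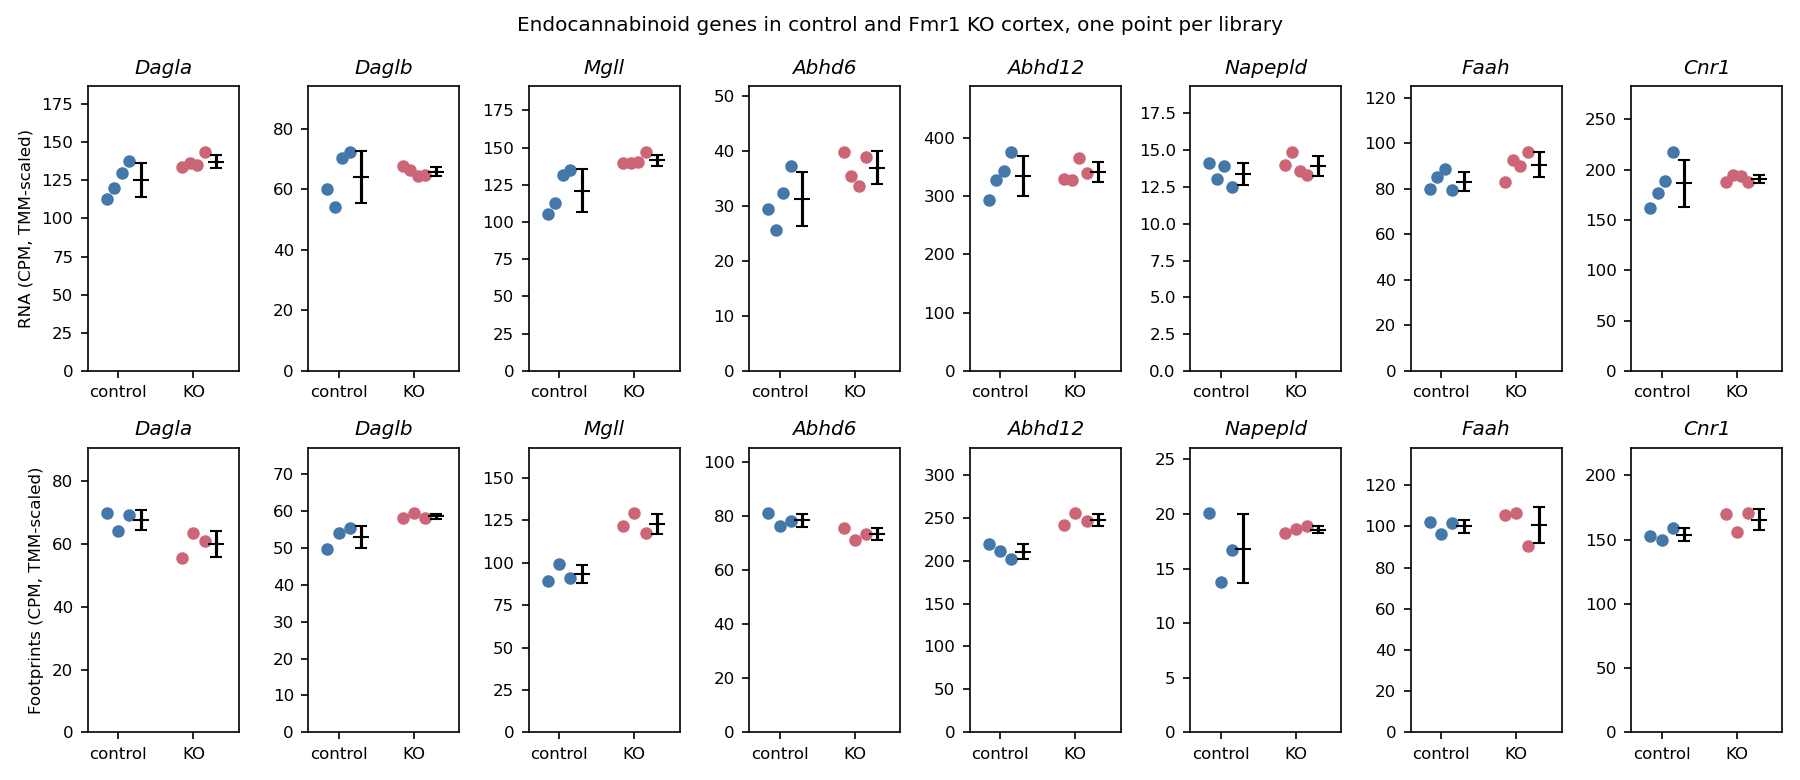
RNA (top) and footprint (bottom) levels of the 8 genes in TMM-scaled CPM, 1 point per library, with the mean and SD of each genotype beside the points; each axis starts at 0. In footprints the KO libraries of Mgll, Abhd12 and Daglb lie wholly above the controls and those of Dagla and Abhd6 wholly below (on plain library sizes these last overlap), and in RNA the Mgll groups do not overlap.

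The second question was whether the mRNA levels differed. None of the 8 members was called in RNA by edgeR, where 7.41% of all genes were, and 2 had an unadjusted p under 0.05, as 23.3% of all genes did. DESeq2 called none either, with 8.46% of all genes called. All 8 had a positive log2 fold change, with a median of 0.093 beside -0.0012 over the 13507 genes tested, of which 49.8% were positive. These signs are not stable: those of Daglb, Cnr1 and Abhd12 turned in mice 5 to 8 alone.

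Mgll RNA was at 105, 113, 131 and 135 CPM in control mice 1, 3, 6 and 8 and at 139, 139, 140.1 and 147 CPM in KO mice 2, 4, 5 and 7. In these columns Mgll was the only member whose RNA libraries did not overlap, higher in KO mice, and 15.1% of all genes tested did not overlap either (7.10% of all genes were higher). The difference of 0.23 ± 0.074 in log2 (SE; edgeR adjusted p = 0.0800) was not called. It was called with the title prefix as a block (adjusted p = 0.0466, edgeR, with 7.09% of all genes called) and without control mouse 8 (0.29, adjusted p = 0.0131, edgeR, with 13.0% called). Within the prefixes it was 0.41 (mice 1 and 2), 0.31 (mice 3 and 4) and 0.11 (mice 5 to 8). It was not called when KO mice 2, 4 and 7 were counted as 1 library (0.22, adjusted p = 0.353, edgeR). In the exon columns, a second RNA count described below, the Mgll groups overlapped and the log2 fold change was 0.054 (adjusted p = 0.715, edgeR). Abhd6 RNA read 29.5, 25.6, 32.4 and 37.3 CPM for the controls in the same order and 39.8, 35.4, 33.6 and 38.9 CPM for the KO mice. Control mouse 8 lay inside the KO range. The uncalled log2 difference of 0.24 ± 0.10 (SE, adjusted p = 0.171, edgeR) became 0.35 (adjusted p = 0.0207, edgeR) without that mouse. It was 0.16 without control mouse 3 (adjusted p = 0.366, edgeR) and 0.058 in mice 5 to 8 (adjusted p = 0.904, edgeR). Counting KO mice 2, 4 and 7 as 1 library and control mice 1 and 3 as another gave 0.16 (adjusted p = 0.700, edgeR).

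Dagla RNA was at 113, 120.1, 130.1 and 138 CPM in control mice 1, 3, 6 and 8 and at 134, 136, 135 and 144 CPM in KO mice 2, 4, 5 and 7. There 1 control lay among the KO libraries (log2 fold change 0.13 ± 0.064 SE, adjusted p = 0.227, edgeR). The Dagla value was 0.089 without control mouse 1, 0.19 without control mouse 8 and 0.060 in mice 5 to 8 (adjusted p = 0.468, 0.0523 and 0.864, edgeR). Faah RNA read 79.8, 85.1, 88.6 and 79.6 CPM for the controls and 83.2, 92.8, 90.3 and 96.3 CPM for the KO mice, with overlap (0.12 ± 0.062 SE, adjusted p = 0.254, edgeR). The other 4 members all overlapped. Daglb RNA read 60.0, 54.3, 70.3 and 72.5 CPM for the controls and 67.7, 66.4, 64.6 and 64.6 CPM for the KO mice. Abhd12 read 294, 327, 343 and 376 CPM against 330.2, 328, 365 and 341 CPM, and Napepld 12.5 to 14.1 CPM against 13.3 to 14.9 CPM. Log2 fold changes were 0.024 for Abhd12, 0.035 for Cnr1, 0.035 for Daglb and 0.062 for Napepld, with adjusted p-values of 0.743 to 0.874 (edgeR). Their 95% intervals lay between -0.14 and 0.26. The Napepld value was 0.027 without KO mouse 4, 0.031 without control mouse 8 and 0.12 in the exon columns (adjusted p = 0.925, 0.885 and 0.293, edgeR).

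Control libraries varied more than KO libraries in 7 of the 8 genes, Faah being the exception, and in 58.7% of all genes tested in RNA. Cnr1 RNA, for example, ran from 162 to 218 CPM over the controls and from 188 to 195 CPM over the KO mice. In 6 genes (Dagla, Daglb, Mgll, Abhd6, Abhd12 and Cnr1) control mouse 8 was the highest control and mouse 1 or 3 the lowest, as in 27.1% of all genes. A list of 12 immediate early genes, which neurons switch on after activity, summed to 578 CPM in control mouse 8 and to 280 to 289 CPM in the other controls. It summed to 525 CPM in KO mouse 5 and to 1171 to 1208 CPM in the other KO mice. In footprints, the assay in which Mgll and Abhd12 were called, it summed to 690 to 739 CPM over the controls and 2592 to 2651 CPM over the KO mice. All 12 genes were called higher in both assays, beside 3.53% of all genes in RNA and 11.9% in footprints. Markers of choroid plexus summed to 281 CPM in control mouse 8 and 119 CPM in KO mouse 5, against 6.53 to 20.02 CPM in the other RNA libraries. In footprints they summed to 12.5 to 14.4 CPM over the controls and 5.69 to 11.2 CPM over the KO mice, without overlap, and Ttr, the gene of the carrier protein transthyretin, was called lower (-1.74 ± 0.41 SE, adjusted p = 0.000516, edgeR). Markers of endothelium summed in RNA to 129 CPM in control mouse 8, 152 CPM in KO mouse 5 and 180 CPM in control mouse 6. The other RNA libraries were at 230 to 252 CPM. In footprints the endothelial sums overlapped, at 225 to 236 CPM in controls and 228 to 251 CPM in KO mice. Whether these signals have a part in the members' values was not tested. With mice 1 to 4 alone, 5 of 8 members were called higher in RNA (Dagla, Daglb, Mgll, Cnr1 and Abhd6), where 12.3% of all genes were. With mice 5 to 8 alone no member was called, where 0.652% of all genes were, and log2 fold changes ran from -0.14 (Daglb) to 0.15 (Faah).

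The third question was whether footprints differed relative to mRNA, the translational efficiency (TE). It was tested as the interaction of genotype and assay over all 14 libraries. No member was called, where 7.81% of all genes were, and 3 members had an unadjusted p under 0.05 (Dagla, Abhd6 and Abhd12), as 23.1% of all genes did. DESeq2 called none either, with 8.07% of all genes called. Dagla and Abhd6 had the lowest log2 differences in TE, -0.31 ± 0.10 (SE, adjusted p = 0.0654, edgeR) and -0.34 ± 0.13 (SE, adjusted p = 0.119, edgeR). Both had RNA above and footprints below control, neither of them called. Abhd12 (0.20 ± 0.093 SE, adjusted p = 0.192, edgeR) and Mgll (0.16 ± 0.11 SE, adjusted p = 0.401, edgeR) lay on the other side. The other 4 members had log2 differences in TE of -0.12 ± 0.098 (Faah), 0.063 ± 0.10 (Cnr1), 0.097 ± 0.12 (Daglb) and 0.093 ± 0.17 (Napepld, SE), with adjusted p-values of 0.497 to 0.792 in edgeR. Single mice moved these uncalled values. Faah ran from -0.19 without KO mouse 2 to -0.046 without KO mouse 10, and Daglb from 0.032 without control mouse 8 to 0.18 without control mouse 3. Mgll ran from 0.10 without control mouse 8 to 0.25 without control mouse 3, and Abhd12 from 0.14 without control mouse 8 to 0.29 without control mouse 1.

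Mice 1 to 4 were measured in both assays, so the mouse can serve as a block in these 4 mice. In that paired fit, which leaves out mice 5 to 10, the TE of Dagla was lower in KO mice by a log2 value of -0.39 (adjusted p = 0.00418, edgeR) and that of Abhd6 by -0.56 (adjusted p = 0.000216, edgeR). Both were called, and the other 6 members were not. Mgll was at 0.039 in the paired fit (adjusted p = 0.840, edgeR) and at 0.031 in mice 1 to 4 without the block (adjusted p = 0.874, edgeR). Abhd12 was at 0.12 in the paired fit (adjusted p = 0.269, edgeR) and Faah at -0.011 (adjusted p = 0.961, edgeR). In the same fit 8.72% of all genes were called lower. Without the block, mice 1 to 4 gave -0.39 and -0.55, both called, with 8.48% of all genes called lower. Both genes were also called in TE without control mouse 8 (adjusted p = 0.0154 and 0.0129, edgeR, 6.03% of genes lower) and by limma voom with library weights (adjusted p = 0.0120 and 0.00770, 8.97% lower). When KO mice 2, 4 and 7 counted as a single RNA library the log2 differences were -0.31 and -0.32, close to those over all libraries. Neither was called (adjusted p = 0.142 and 0.254, edgeR, with 4.47% of all genes called). The calls in mice 1 to 4 rest on RNA libraries that differ little within a genotype. Chi-square per degree of freedom was 1.32 for KO mice 2 and 4 and 1.99 for control mice 1 and 3. A mouse's deviations correlated between assays at only -0.013 to 0.034, so little gain from the block was measured.

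Per mouse, the ratio of footprint CPM to RNA CPM for Dagla was 0.619 and 0.534 in control mice 1 and 3 and 0.414 and 0.467 in KO mice 2 and 4. For Abhd6 it was 2.74 and 2.98 in the controls and 1.90 and 2.01 in the KO mice. These were the members without overlap, both lower, and 27.4% of all genes tested were likewise lower without overlap in these 4 mice. Mgll, whose footprints rose, had ratios of 0.850 and 0.883 in controls and 0.874 and 0.927 in KO mice, which overlapped. Those of Abhd12 were 0.745 and 0.646 in controls and 0.732 and 0.778 in KO mice. On plain library sizes Dagla and Abhd6 were again lower without overlap. Mgll (0.839 and 0.864 against 0.885 and 0.934) and Abhd12 (0.735 and 0.632 against 0.741 and 0.785) were higher without overlap there. With TMM scaling 26.2% of all genes were higher without overlap in these 4 mice. The shares of all genes on plain library sizes were not computed, so these separations cannot be weighed.

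The ratio also ordered the members. Gene length cancels in it if footprints and RNA were counted over the same region, which is not given in the sources used here, so the order is a description that holds under that condition. From the group means in controls, Abhd6 had the highest ratio, 2.51, above 96.7% of the 12145 genes tested in both assays. Napepld (1.26) and Faah (1.20) followed, and their ranges over mice 1 and 3 overlapped. Daglb (0.823), Cnr1 (0.825) and Mgll (0.770) lay close together in the middle of the order. Abhd12 was at 0.628 and Dagla the lowest at 0.542, above 21.4% of genes. In KO mice Abhd6 was at 1.99 and Dagla at 0.438, above 14.6% of genes, so both kept their places at the ends of the members' order. That order holds for the matched columns only. Against the exon columns Abhd6 was again highest in controls (2.14), but Mgll (0.363) and Cnr1 (0.371) lay below Dagla (0.621). Levels of different genes were not compared in CPM, since coding lengths were not used here.

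**Figure D2:**
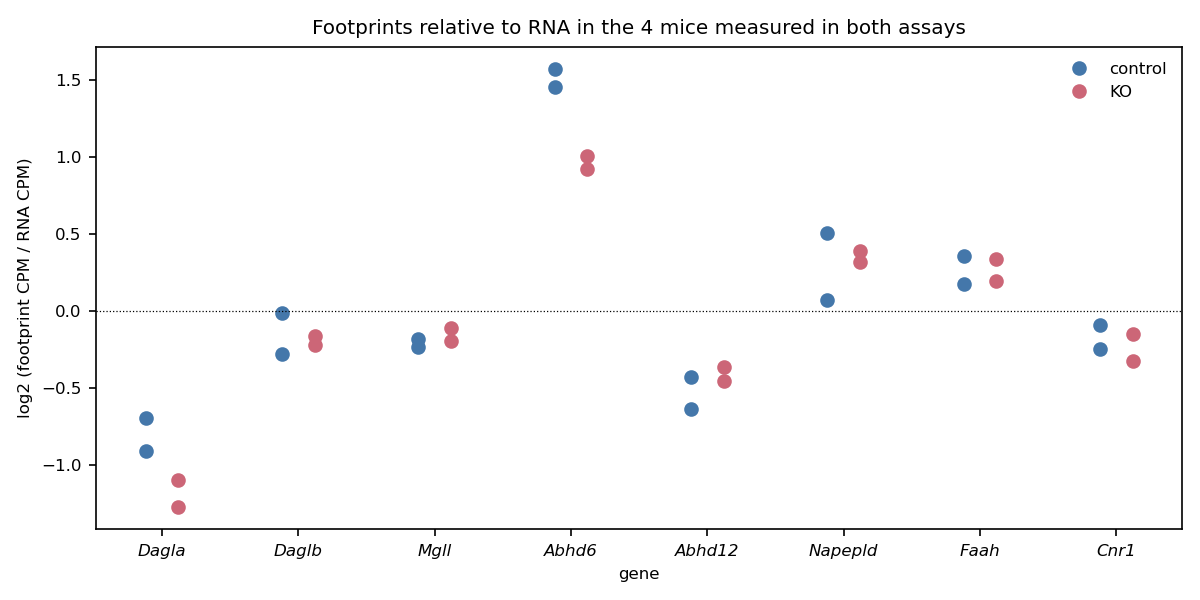
Log2 ratio of footprint CPM to RNA CPM for the 8 genes in control mice 1 and 3 (blue) and KO mice 2 and 4 (red), 1 point per mouse; the dotted line marks a ratio of 1. Dagla and Abhd6, at opposite ends of the scale with these RNA columns, are the genes whose KO mice lie below both controls.

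**Figure D3:**
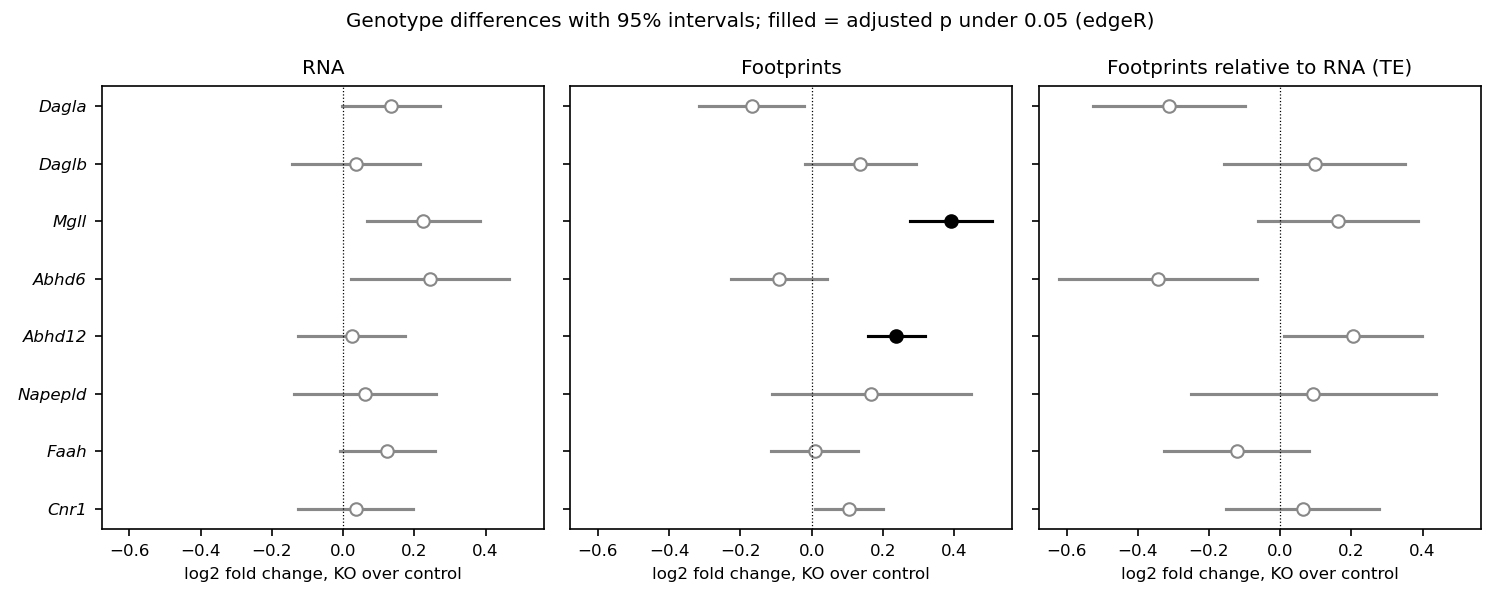
Log2 fold changes of KO over control with 95% intervals for the 8 genes in RNA, footprints and TE. Filled points (Mgll and Abhd12 in footprints) passed an adjusted p under 0.05 in edgeR; all other points are open.

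Each RNA library also had a second and larger count per gene, in columns marked exon. The first count, which is blank for the same genes as the footprints, is called the footprint-matched count here. What region each covers is not given in the sources used here. The share of the exon count held by the matched count was lowest for Mgll and Cnr1 and highest for Daglb among the members. For Mgll the share was 24.8%, 25.7%, 26.3% and 25.6% in control mice 1, 3, 6 and 8 and 28.2%, 28.8%, 29.5% and 30.1% in KO mice 2, 4, 5 and 7. All KO libraries lay above all controls, as 3.80% of all genes did. Control mouse 8 and KO mouse 5 did not stand apart here. The library-wide share was 52.9% to 56.7% in controls and 54.1% to 55.3% in KO mice, with overlap. By exon counts Mgll averaged 257 ± 33.6 CPM over the controls and 267 ± 7.28 CPM over the KO mice (SD, n = 4 each). In these columns 8.55% of all genes were called, and no member was. Napepld was the member whose exon CPM did not overlap, higher in KO mice (16.8 ± 0.773 and 18.3 ± 0.637 CPM, SD, n = 4 each), as 7.70% of all genes were. In TE computed against the exon columns, Mgll had a log2 difference of 0.35 (adjusted p = 0.0567, edgeR), above the 0.16 of the matched columns and the 0.039 of the paired fit.

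For Cnr1 the share was 24.5 ± 3.48% in controls and 25.8 ± 1.27% in KO mice (SD, n = 4 each), with control mouse 8 the highest at 29.5%. By exon counts Cnr1 averaged 414 ± 13.2 CPM over the controls and 408 ± 22.4 CPM over the KO mice (SD, n = 4 each), and there control mouse 8 (418 CPM) lay among the other controls. The shares of Dagla (62.3% and 63.2%), Daglb (73.7% and 75.2%), Faah (64.8% and 65.7%), Abhd12 (68.9% and 70.0%), Abhd6 (46.2% and 48.6%) and Napepld (43.3% and 42.0%, control and KO means) overlapped between genotypes. RefSeq places lncRNA genes over parts of Dagla, Mgll and Abhd6, a snoRNA in Abhd12 and a pseudogene and a miRNA gene in Napepld. The strand setting of the counting is not given in the sources used here, so reads of such neighbours cannot be told apart from the members'.

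**Figure D4:**
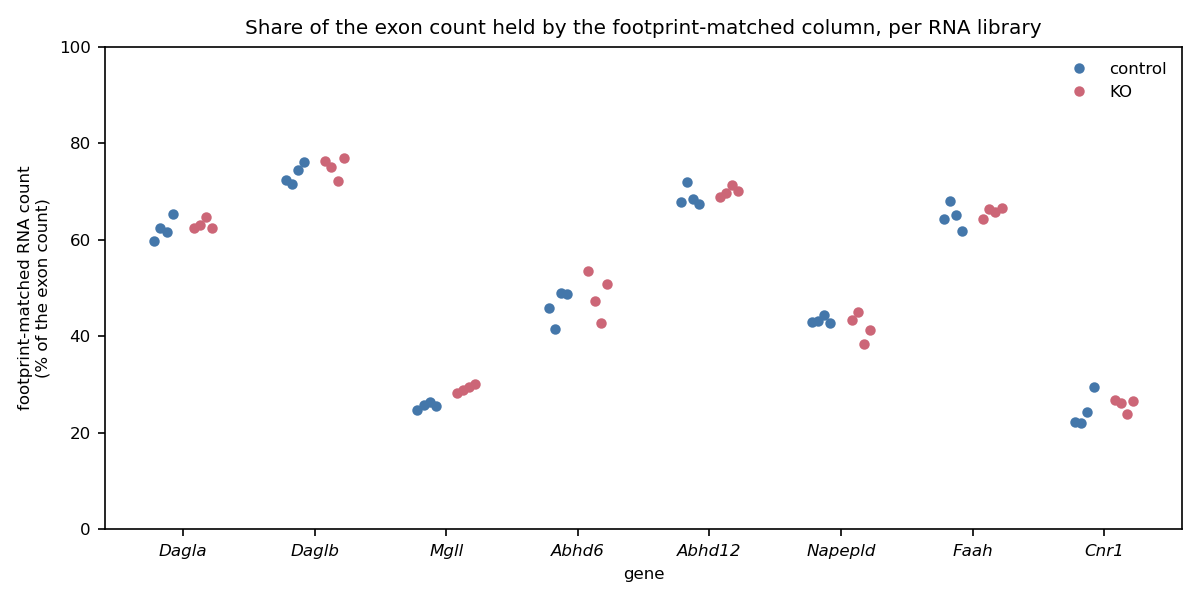
Footprint-matched RNA count as a percentage of the exon count for the 8 genes, 1 point per RNA library, control in blue and KO in red. The KO points of Mgll (28.2% to 30.1%) lie above its control points (24.8% to 26.3%), and the groups of the other genes overlap.

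The rest of the pathway was read from lists chosen by role. Of 15 further enzymes of endocannabinoid and related lipid metabolism, 11 were tested. In footprints 4 of them rose and none fell, where 11.9% of all genes were called higher and 13.6% lower. Their median log2 fold change was 0.053, beside 0.0054 over all genes, and none was called in RNA or TE, where 7.41% and 7.81% of all genes were. Ptgs2 (COX-2), which oxygenates 2-AG and is itself induced by neuronal activity, rose by 0.78 ± 0.16 (SE, adjusted p = 7.54e-05, edgeR). Abhd4, a hydrolase on another route to anandamide, rose by 0.34 ± 0.080 (SE, adjusted p = 0.000509, edgeR). Of 11 further receptors and binding proteins 6 were tested, and Fabp5 and Fabp7, fatty acid binding proteins that carry anandamide inside cells, fell in footprints (-0.44 ± 0.076 SE, adjusted p = 1.41e-06, and -0.33 ± 0.056 SE, adjusted p = 1.06e-06, edgeR). Fabp7, an astrocyte protein, also fell in RNA (-0.80 ± 0.094 SE, adjusted p = 0.000351, edgeR) and was higher in TE (0.46 ± 0.13 SE, adjusted p = 0.0277, edgeR). The 6 thus held 2 called lower in footprints (13.6% of all genes), 1 lower in RNA (3.88%) and 1 higher in TE (3.40%).

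Upstream, 12 genes of the Gq-coupled input to Dagla were tested. In footprints 3 rose and 2 fell, beside 11.9% and 13.6% of all genes. In RNA 2 rose and none fell, beside 3.53% and 3.88% of all genes, and in TE none was called, beside 7.81%. The medians were 0.064 in footprints, 0.017 in RNA and -0.044 in TE. Homer1, a gene of scaffolds of metabotropic receptors, rose in footprints by 0.20 ± 0.058 (SE, adjusted p = 0.00656, edgeR). Counts per gene do not tell its transcript forms apart. Gna11, a Gq-class alpha subunit, rose in footprints by 0.22 ± 0.060 (SE, adjusted p = 0.00354, edgeR). Homer2 fell (-0.39 ± 0.14 SE, adjusted p = 0.0359, edgeR), as did Grm5, the receptor mGluR5 (-0.15 ± 0.039 SE, adjusted p = 0.00141, edgeR). The muscarinic receptors Chrm1 (0.27 ± 0.076 SE, adjusted p = 0.0425, edgeR) and Chrm3 (0.22 ± 0.063 SE, adjusted p = 0.0478, edgeR) rose in RNA. Chrm1 was also called higher in footprints (0.19 ± 0.045 SE, adjusted p = 0.000507, edgeR), and Chrm3 was not.

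Downstream, 13 genes of the Gi-coupled output of CB1 were tested. In RNA 5 rose and none fell, beside 3.53% and 3.88% of all genes. In footprints 2 rose and 4 fell, beside 11.9% and 13.6%, and in TE none rose and 4 fell, beside 3.40% and 4.41%. Median log2 fold changes were 0.13 in RNA, 0.030 in footprints and -0.16 in TE, with -0.0012, 0.0054 and -0.011 over all genes tested. Rims1, a scaffold of the presynaptic active zone, was lower in footprints (-0.33 ± 0.047 SE, adjusted p = 1.29e-08, edgeR) and in TE (-0.53 ± 0.090 SE, adjusted p = 0.000684, edgeR). Cacna1a, the pore of the P/Q-type calcium channel that CB1 inhibits, was higher in RNA (0.25 ± 0.064 SE, adjusted p = 0.0299, edgeR) but lower in footprints (-0.22 ± 0.046 SE, adjusted p = 0.000109, edgeR) and in TE (-0.47 ± 0.089 SE, adjusted p = 0.00171, edgeR). The G protein subunit Gnb1 was higher in RNA (0.48 ± 0.063 SE, adjusted p = 0.000692, edgeR) and in footprints (0.20 ± 0.026 SE, adjusted p = 7.24e-10, edgeR), and lower in TE (-0.29 ± 0.078 SE, adjusted p = 0.0248, edgeR). Kcnj9, a subunit of the potassium channels that Gi proteins open, rose in RNA (0.31 ± 0.064 SE, adjusted p = 0.0110, edgeR), and its partner Kcnj3 rose in RNA (0.21 ± 0.060 SE, adjusted p = 0.0434, edgeR) and in footprints (0.26 ± 0.063 SE, adjusted p = 0.000640, edgeR).

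CB1 is concentrated on interneurons that make cholecystokinin, and Mgll is also made by astrocytes. A list of 6 genes chosen as markers of such interneurons held Cck, Vip, Slc17a8, Htr3a, Reln and Adarb2. Their specificity for these cells was not tested, and Vip is also on the list of inhibitory neurons. The 6 summed to 645 to 705 CPM in control RNA and 561 to 601 CPM in KO RNA. In footprints they summed to 783 to 824 CPM in controls and 775 to 812 CPM in KO mice. In RNA none of the 6 was called higher and 1 lower, and in footprints 2 were called higher and 1 lower, where 7.41% of all genes were called in RNA and 25.5% in footprints. The gene called lower was Reln in both assays (-0.31 in RNA and -0.57 in footprints). Cck itself, the gene of cholecystokinin, was at -0.046 in RNA, not called, and was called higher in footprints (0.36), as was Vip (0.28). Of 7 astrocyte markers, 2 were called lower in RNA and none higher, and 2 higher and 1 lower in footprints. Those lower were Gfap and Aqp4 in RNA and Gfap in footprints, and those higher in footprints were Slc1a2 and S1pr1. Their RNA sums were 3016 to 3232 CPM for controls and 3127 to 3830 CPM for KO mice, with KO mouse 5 apart at the top and the other KO mice at up to 3155 CPM. Their footprint sums were 4444 to 4490 CPM and 4545 to 4583 CPM, without overlap, while the RNA sums overlapped. Of single genes, 37.3% did not overlap in footprints. Of 8 excitatory markers, 2 were called higher in RNA (Camk2a at 0.75 and Slc17a7 at 0.20 in log2) and none lower, while Slc17a6, Neurod6 and Emx1 had negative values. In footprints 3 were called higher and 1 lower, Camk2a at -0.14, with a median of 0.022. Their sums were 2572 to 2840 CPM in control RNA and 3203 to 3481 CPM in KO RNA, and 5642 to 5777 CPM and 5421 to 5692 CPM in footprints. The summed level of 7 oligodendrocyte markers did not overlap in either assay, at 5077 to 5585 CPM against 4480.0 to 4817 CPM in RNA and 8673 to 8829 CPM against 8509 to 8547 CPM in footprints. The markers went both ways: in footprints 2 were called higher (Mobp and Cldn11) and 3 lower (Mbp, Mag and Cnp), with a median of 0.026. The sums of 7 inhibitory neuron markers (1636 to 1680 CPM against 1710 to 1734 CPM) and of 7 microglia markers (498 to 521 CPM against 482 to 496 CPM) did not overlap in footprints and overlapped in RNA. Among the inhibitory markers 3 were called higher in footprints (Pvalb, Sst and Vip) and 1 lower (Gad2), and in RNA 1 higher (Slc32a1) and 1 lower (Pvalb). Among the microglia markers only C1qb was called, lower in both assays (-0.48 in footprints), and the footprint median was 0.022. These sums are TMM-scaled. The footprint sums of oligodendrocyte markers lay the other way on plain library sizes, at 8476 to 8657 CPM in controls and 8669 to 8735 CPM in KO mice, and those of microglia markers overlapped. The marker genes named here were chosen after their values were seen. A list of 6 hypothalamic genes summed to 39.4 to 74.1 CPM in control RNA and 20.2 to 24.04 CPM in KO RNA, and to 110 to 118 CPM in control footprints against 41.5 to 48.0 CPM in KO footprints. No marker of these lists was at 0. Their part in the members' values was not tested.

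The profile over all 14 libraries, each centred on the controls of its assay, was compared between the called members and 12848 genes of at least 1 CPM. The closest to Mgll were Pip5k1c, a lipid kinase that makes the phosphoinositide PIP2, and Atp6ap1, an accessory protein of the vacuolar proton pump, at root mean square differences of 0.057 and 0.065 on the log2 scale. Their footprint log2 fold changes were 0.38 and 0.33, beside 0.39 for Mgll. The closest to Abhd12 were Lxn and Vapa, at 0.039 and 0.047, with footprint log2 fold changes of 0.26 and 0.22 and RNA values of 0.019 and -0.026. Likeness was read over libraries that share genotype and depth and is a description only. The KO libraries were part of the match, so similar fold changes follow from the choice of these genes.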

How the data were processed

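RNA-seq and footprint counts per gene came from 1 table that the authors deposited, with whole-number counts and no normalization. Bowtie2, STAR 2.5, featureCounts and Subread 1.4.6 and the builds mm9 and mm10 are named, per the submitters' processing notes, without roles. Annotation, strand setting and counted region are not given in the sources used here. Of 23412 genes, 2849 held no footprint value. RNA columns without a suffix are blank for the same genes and were used throughout. The exon columns were an alternative.

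RNA (8 libraries) and footprints (6) were each tested by genotype with edgeR 4.0.16 (R 4.3.3): quasi-likelihood F test, TMM, filterByExpr at a minimum count of 10, Benjamini-Hochberg adjustment over all genes, two-sided. TE was the genotype by assay interaction over 14 libraries. DESeq2 1.42.0 and limma 3.58.1 served as alternatives. Standard errors and 95% intervals derive from the F statistic. Log2 profiles used a pseudocount of 0.5 CPM, and library pairs used genes with at least 20 counts, without BC048546. The fits were also run on simulated data, whose outcome is not given here and is no evidence on the tests of these libraries.

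The members, lists and alternatives were chosen with earlier results of these data known. All 8 members were named in each test, and from each pathway list the 2 called genes with the largest change in each direction. For each called member the 2 genes with the closest profile were named. Mouse numbers in the labels mark the same animal in both assays. The deviations of a mouse from its group correlated between assays at -0.013 to 0.034 (Pearson's r across 12142 genes, mice 1 to 4), so little shared deviation was measured. Depth limits the low members: Napepld had 117 to 171 RNA counts and 77 to 94 footprint counts. All intervals cover these libraries only.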

Additional observations from a re-analysis of the deposited data

Results flagged for a closer look

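In the RNA groups of 4 mice, the CPM and the footprint-matched share of each of the 8 genes were examined for 1 library far from the rest, 32 groups in all, where chance gives about 1 in 20. KO mouse 7 stood apart in Mgll RNA, at 147 CPM against 139, 139 and 140.1 CPM in the other KO mice. Its gap to the nearest library was 0.910 of the group's range, above Dixon's critical value for 4 samples. This was the only flag in the 32 groups, fewer than 1 in 20. On plain library sizes KO mouse 7 was at 149 CPM and KO mice 2, 4 and 5 at 141, 141 and 136 CPM. That is a wider spread, and the gap was not examined on it. Without KO mouse 7 the Mgll RNA log2 fold change was 0.21 (adjusted p = 0.201, edgeR).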

How the results depend on the processing

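Footprint calls of Mgll and Abhd12 kept direction and call in all 11 alternatives, and without each mouse in turn the number of members called was 2 to 3. On plain library sizes 4 members were called, Daglb (log2 fold change 0.20, adjusted p = 0.0496, edgeR) and Cnr1 being the additions. In RNA the number called went from 0 to 1 with the title prefix as a block and to 5 with only mice 1 to 4, and was 0 to 2 when each mouse was left out. In TE it went from 0 to 2 with the replicate block (mouse), with only mice 1 to 4 and with limma voom, and was 0 to 2 when each mouse was left out. The other alternatives left 0 called in RNA and in TE. Of 384 values of single members, 347 kept direction and call, 19 gained a call, 18 turned and none lost one. All that turned were uncalled and small. In RNA, Daglb was at -0.020 when KO mice 2, 4 and 7 became 1 RNA library and control mice 1 and 3 another, -0.14 with mice 5 to 8 and -0.038 to 0.10 when each mouse was left out. Cnr1 RNA was at -0.094 with mice 5 to 8, -0.022 in the exon columns and -0.025 to 0.12 with mice left out in turn. Abhd12 RNA was at -0.028 with mice 5 to 8, -0.032 without mouse 1, -0.0066 without mouse 5 and up to 0.087 without mouse 8. Faah footprints were at -0.024, -0.022 and -0.034 without mouse 2, 3 or 4 and up to 0.083 without mouse 10. In TE, Daglb was at -0.074 with the replicate block and -0.069 in mice 1 to 4, Cnr1 at -0.078 and -0.081 there and -0.021 to 0.12 with mice left out in turn, and Napepld at -0.027 to 0.19 in the same way. The cause was not tested. Over all genes, calls in RNA were 1001 and went to 79 with KO mice 2, 4 and 7 summed, 36 with control mice 1 and 3 also summed, 88 in mice 5 to 8 and 3273 in mice 1 to 4. Footprint calls were 3102, against 1801 with DESeq2 and 1673 in one fit over all libraries. TE calls were 949, against 1868 with the block, which uses mice 1 to 4 only, 1806 in those mice without it, 1903 with limma voom and 543 with KO mice 2, 4 and 7 summed. With mice left out in turn, RNA calls ran from 356 (2.62%, without mouse 4) to 1763 (13.0%, without mouse 8). TE calls ran from 419 (3.40%, without mouse 2) to 1289 (10.6%, without mouse 5), and footprint calls from 2558 to 2855. The shares of all genes beside the members' counts move with them.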
